A study of Gallus gallus with 3 samples.

Results

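The miR-10 and miR-196 families are microRNAs (miRNAs) whose genes lie inside the HOX clusters. The probes chosen here were those named gga-miR-10 or gga-miR-196 with at most 1 letter after the number, and 3 of the 542 miRNA probes on the arrays met that rule, gga-miR-10a, gga-miR-10b and gga-miR-196. RNA from chicken leg muscle was compared between dwarf and normal recessive White Rock chickens at 7 weeks of age. The dwarf strain carried a deletion at the end of the growth hormone receptor gene (GHR) and the normal strain did not; both were meat-type birds raised under the same conditions, and the muscle was taken from the middle of the gastrocnemius. For each strain 9 chickens were combined into 3 pools of 3, so that a pool is 1 replicate and the spread among single birds was not measured. Each of 3 arrays held 1 dwarf and 1 normal pool, with the dwarf pool in Cy5 on arrays 1 and 3 and in Cy3 on array 2.

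HOX genes encode the transcription factors that set position along the body axis and in the limbs, and they keep much of their regional pattern in adult tissue. The miRNAs between them act after transcription. A miRNA guides a silencing complex to messenger RNAs that pair with its seed, bases 2 to 8 from the 5′ end. HOX messenger RNAs are among the targets of both families, as in the cleavage of Hoxb8 by miR-196 in mouse and the repression of HOXD10 by miR-10b in human cells.

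By gene order in RefSeq's annotation (assembly bGalGal1.mat.broiler.GRCg7b), 8 miRNA genes lay inside 4 HOX clusters, and 7 of them had a probe matched by name. MIR10A lay in the HOXB cluster between HOXB5 and HOXB4, within the annotated span of HOXB3. MIR10B lay at the matching place of the HOXD cluster, between HOXD4 and HOXD8 and within the span of HOXD3. There were 3 miR-196 genes. MIR196B lay in the HOXA cluster between HOXA7 and HOXA10, within the span of HOXA9. MIR196A1 lay between HOXB13 and HOXB8, and MIR196A2 between HOXC9 and HOXC10. The gga-miR-196 probe was matched to all 3 by name only, and which of their products it binds was not tested.

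The sequences below, as written beside the probes on the arrays, are shown because they set which RNAs a probe could be mistaken for. They are given 5′ to 3′ with the seed in capitals.
gga-miR-10a: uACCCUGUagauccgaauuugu
gga-miR-10b: uACCCUGUagaaccgaauuugu
gga-miR-196: uAGGUAGUuucauguuguugg
gga-miR-100: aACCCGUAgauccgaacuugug
gga-miR-99a: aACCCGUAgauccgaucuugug
gga-let-7b: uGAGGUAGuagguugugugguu
The miR-10 pair shared the seed ACCCUGU, which no other probe carried, and differed by the single substitution U12A (the gga-miR-10a base, the position from 1 at the 5′ end, then the gga-miR-10b base). With 1 base of 22 between them, RNA of one may bind the probe of the other, and how much did so was not measured. The seed of gga-miR-196, AGGUAGU, was its own at bases 2 to 8, but the same letters stood at positions 3 to 9 of all 8 let-7 probes. miR-99a and miR-100 are related to miR-10 with an altered seed, ACCCGUA. Their longest shared run with gga-miR-10a was 10 bases for miR-99a and 11 for miR-100, against 5 for either with gga-miR-10b, because the substitution falls inside that run.

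Each miRNA was printed as 6 spots on an array. The scanned background differed between the dyes, with a median of 304 to 829.6 intensity units in Cy3 and 44.2 to 53.1 in Cy5, and the noise (the scaled median absolute deviation, MAD, of all miRNA spots above background) was 12.8 to 35.7 in Cy3 and 2.7 to 4.31 in Cy5. Signals are given in arbitrary units after background subtraction, with the loess dye curve removed and the arrays scaled to a common median. A miRNA counted as detected where its mean signal was above 32 in a strain. By that standard 85 miRNAs were detected in the dwarf pools and 75 in the normal pools, and 85 were tested. The normal pool was in Cy3, the noisier dye, on arrays 1 and 3, so strain and dye were not separated in these counts. The study reported nearly equal counts in both strains at this age, and larger ones than here. Its signals were processed otherwise, so the same number, 32, may not be an equal limit. The muscle markers miR-1, miR-133, miR-206 and miR-499 were detected for 6 of 7 probes, with a summed signal of 28933 to 70208 in dwarf and 41311 to 59799 in normal pools, and miR-1b stood near 0. Most of that sum was miR-1a and miR-133c. miR-499 passed only through its dwarf mean, 321 against 29.9 in normal pools. miR-1a ran the other way, with means of 21126 and 26956. Their limma adjusted p-values were 0.418 and 0.705. Of the other markers, 2 of 5 for blood, 1 of 2 for endothelium, 1 of 2 for cartilage and the liver marker miR-122 were detected, and 0 of 5 for epithelium, 0 of 2 for brain and 0 of 1 for pancreas.

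Only gga-miR-10a of the 3 HOX-cluster miRNAs passed the standard, and only through its mean in the dwarf pools. gga-miR-10b and gga-miR-196 stayed below 32 in all 6 pools. No difference between the strains passed the test for gga-miR-10a, and the other pair were too dim to enter it. Because these are whole-muscle pools, fewer cells that make a miRNA and less of it per cell cannot be told apart.

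At the level of single spots, gga-miR-10a rose above 3 times the MAD in 16 of 18 Cy5 spots and 8 of 18 Cy3 spots. Across all miRNA spots that share was 16.7% in Cy5 and 13.8% in Cy3. The clearest reading was the dwarf pool of array 3, in Cy5, where the 6 spots lay between 84.9 and 111 units above background against 3 MAD of 12.9. The normal pool of array 2, also in Cy5, gave 15.1 to 29.6 units against 8.11, and all 6 of its spots passed. On array 1 the normal pool, in Cy3, had 0 of 6 spots past 3 MAD and the dwarf pool, in Cy5, had 4 of 6. gga-miR-10b passed in 7 of 18 Cy5 and 4 of 18 Cy3 spots, and gga-miR-196 in 4 of 18 and 1 of 18.

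**Figure D1:**
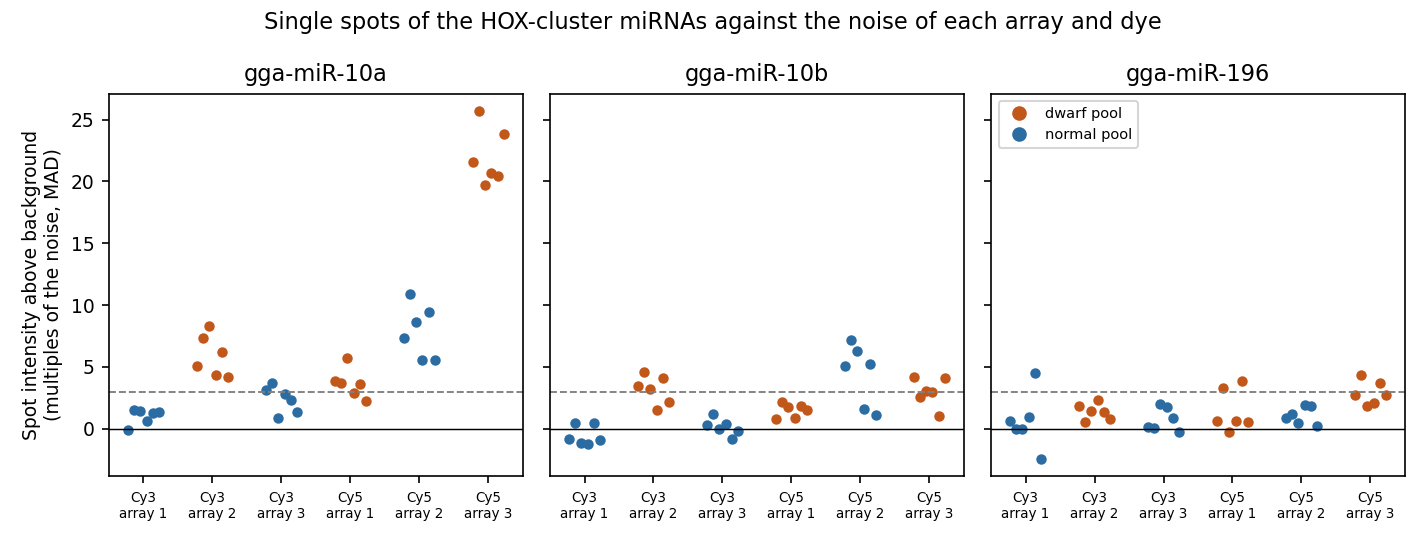
Single spots of gga-miR-10a, gga-miR-10b and gga-miR-196 (6 per array and dye), with the intensity above background in multiples of the MAD of that array and dye on the vertical axis, orange for dwarf and blue for normal pools, and the dashed line at 3. The gga-miR-10a spots of the array 3 dwarf pool stand clear of all others, while most spots of gga-miR-196 lie below the dashed line.

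The normalised signal of gga-miR-10a was 46.4, 32.2 and 138 in the dwarf pools of arrays 1, 2 and 3. In the normal pools of the same arrays it was 27.8, 20.2 and 43.7. The dwarf pool was higher on each array, but the groups overlapped, since the normal pool of array 3 lay between the dwarf pools of arrays 1 and 2. Before loess and scaling the intensities above background were 12, 75.9 and 94.8 in dwarf and 36.9, 21.4 and 74.4 in normal pools. The normal pool was then the higher one on array 1, with the dyes not yet on a common scale. In order, the dwarf pool of array 3 came first, then dwarf 1, normal 3, dwarf 2, normal 1 and normal 2. After the first of these, no step to the next pool exceeded 12 units, the SD of the normal pools. The means were 72.3 ± 57.5 (SD, n = 3) in dwarf and 30.6 ± 12 in normal pools, and 1 of the 3 normal pools was above 32. An exact two-sided permutation test of the 6 signals gave p = 0.2, where 0.1 is the smallest p that 3 against 3 can give. This test, also used below for the signals of the other members, did not use the pairing of pools by array.

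The log2 ratio of dwarf over normal, computed per array from normexp-corrected intensities with an offset of 50, was 0.19, -0.03 and 0.62 for gga-miR-10a. The ratio of array 2 was just below 0 although its dwarf signal was the higher one, so signals and ratios disagreed in sign on that array. The mean was 0.26 (SE 0.20, 95% confidence interval -0.21 to 0.73), a fold of 1.2, and limma gave an adjusted p of 0.849 over the 85 miRNAs tested. Its place among the 85 came only from its dwarf mean, so the filter was not independent of the difference tested. With no filter on dim miRNAs the limma adjusted p was 0.903 over 542. An exact sign-flip permutation test of the 3 ratios gave p = 0.5, with 0.25 as the smallest possible. limma called 0% of the tested miRNAs at an adjusted p under 0.05. Before adjustment 4 of the 85 tested miRNAs had a limma p under 0.05, among them miR-100 but not gga-miR-10a. gga-miR-10b and gga-miR-196 were not tested and could not appear there.

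Array 3 carried most of the gga-miR-10a ratio. Without it the mean was 0.08 and the mean dwarf signal fell from 72.3 to 39.3. The spots in the upper and lower parts of that slide gave 0.59 and 0.64. Its left and right parts were not compared. The array 3 dwarf pool also had the highest summed signal of the blood markers, 172 against 66.7 to 135 in the other dwarf pools and 59.7 to 87.2 in normal pools. Of the 5 blood markers, miR-451 alone was highest in that pool, at 136, while miR-223 stood at 43.5 against 58.7 in the normal pool of array 1, and miR-144, miR-142-3p and miR-142-5p were near 0. The summed endothelial markers were also highest there, nearly all of it miR-126, at 5661 against 2318 and 2913 in dwarf and 2416 to 3866 in normal pools. In these pools the liver marker miR-122 ran the other way, with 3.65 in that pool and 85.3 to 271 in the rest. Outside the marker lists, the array 3 dwarf pool was the highest of all pools for let-7a, let-7d, let-7f (3875), let-7g (569), let-7i (1023) and let-7k (85.9). let-7b and let-7c were highest in the dwarf pool of array 1 (9126 and 8153). The share of all probes highest in the array 3 dwarf pool was not counted. The part of the marked cell types in the gga-miR-10a value was not tested.

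gga-miR-10b gave signals of 18.1, 18 and 21.5 in the dwarf pools. The normal pools gave -15.7, 10.9 and 2.43, where a value below 0 means a spot dimmer than the fitted background. All 3 dwarf pools lay above all 3 normal pools. Among all 542 probes 5.54% were split this way, dim probes included. The dwarf mean was 19.2 ± 2.02 and the normal mean -0.787 ± 13.6 (SD, n = 3 each), and an exact permutation test gave p = 0.1, the smallest it can give. The separation rested on the loess and scaling steps. Before them, the intensities above background were 4.8, 40.7 and 12.9 in dwarf and -19.3, 11.9 and 4.98 in normal pools, which overlapped. The dwarf pool was still the higher one on each array. Neither the arrays nor the dyes were on a common scale at that step.

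The log2 ratios of gga-miR-10b were 0.22, -0.05 and 0.35, with a mean of 0.17 ± 0.20 (SD, n = 3). They took no part in the limma test because the probe was below 32 in both strains. An exact sign-flip permutation test gave p = 0.5, and leaving out array 3 lowered the mean ratio to 0.08. In the log2 ratios as deposited, gga-miR-10b stood at 2.1, -0.33 and 1.35, with a mean of 1.04 ± 1.24 (SD). On array 1 none of its spots was above 3 MAD in either dye. On array 3 none was in the normal pool and 3 of 6 were in the dwarf pool. In the same deposited values gga-miR-10a stood at 0.84, -0.19 and 0.93. In both sets array 2 had the opposite sign to arrays 1 and 3.

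For gga-miR-196, which in mouse is expressed in the hindlimb, the dwarf signals were 18.3, 8.23 and 20.9. The normal signals were 14.5, 2.53 and 12.3. The dwarf pool was higher on each array and the groups overlapped, with means of 15.8 ± 6.68 in dwarf and 9.8 ± 6.39 in normal pools (SD, n = 3 each). Before loess and scaling the intensities above background were 4.75, 17.7 and 12.6 in dwarf and 21.5, 2.93 and 23.7 in normal pools. The Cy3 pool was then the higher one on every array, whichever strain it held. The dyes were not on a common scale at that step, and the share of all probes with this pattern was not counted. The 6 Cy3 spots of array 1 ran from -85.9 to 160.2 around a mean of 21.5. The log2 ratios after normalisation were 0.04, 0.02 and 0.21, with a mean of 0.09 ± 0.10 (SD, n = 3). gga-miR-196 was below 32 in both strains and took no part in the limma test. Exact permutation tests gave p = 0.4 for the 6 signals and p = 0.25, the smallest possible, for the signs of the 3 ratios.

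**Figure D2:**
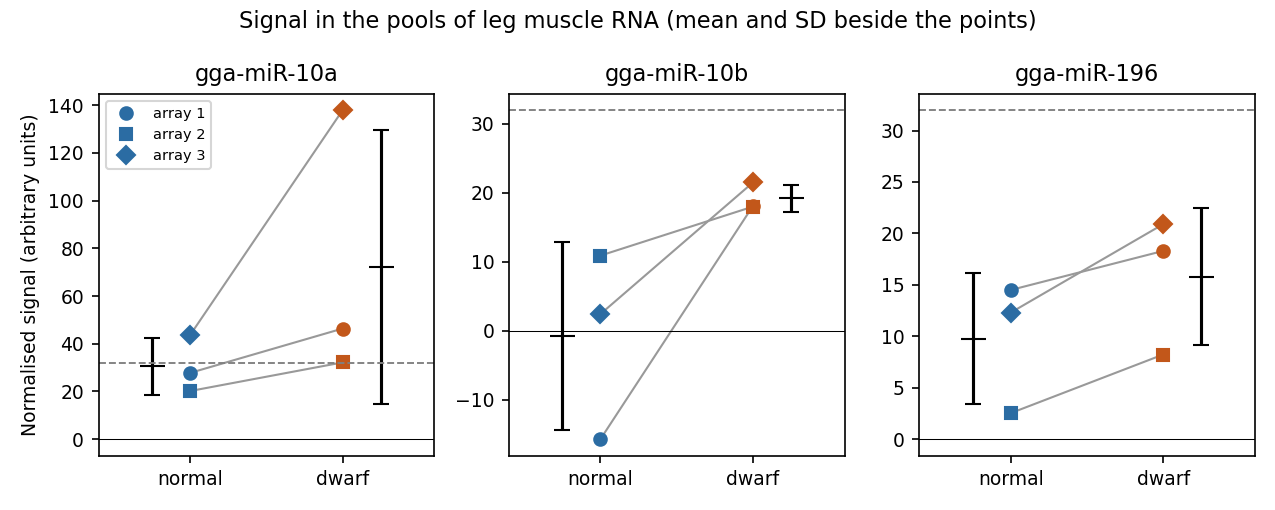
Normalised signal (arbitrary units) of gga-miR-10a, gga-miR-10b and gga-miR-196 in the 3 normal and 3 dwarf pools, with lines joining pools of 1 array, the mean and SD beside the points, and a dashed line at 32; the vertical scale differs between panels. gga-miR-10a reaches 138 in the dwarf pool of array 3, and gga-miR-10b and gga-miR-196 stay below the line in every pool.

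The 3 miRNAs shared one feature, a higher signal in the dwarf pool on all 3 arrays. Over all probes 16.2% showed it. Before loess and scaling, gga-miR-10a lacked it on array 1 and gga-miR-196 on arrays 1 and 3, while gga-miR-10b had it on each array. The order of the mean signals also turned with the background used. With the background taken from the empty spots in place of the surface fitted through the miRNA spots, the mean signals were 72.4 in dwarf and 81.4 in normal pools for gga-miR-10a, 22.4 and 53.8 for gga-miR-10b, and 17.6 and 61.7 for gga-miR-196. Against the fitted surface, the empty spots had Cy3 medians of -168, -15.5 and -63.2 units on arrays 1, 2 and 3. In Cy5 the medians were -0.891, 0.672 and 3.46. Cy3 held the normal pool on arrays 1 and 3. With the empty-spot background 540 miRNAs passed the standard of 32 and were tested, against 85 with the fitted surface. The rise in signal was therefore not particular to these 3 miRNAs. For them the choice of background decided which strain had the higher mean signal, and the direction in the other probes was not compared. The mean log2 ratios of the 3 stayed above 0 with the empty-spot background, at 0.30, 0.19 and 0.11.

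Dye was the other axis of the design. Read as Cy5 over Cy3, the ratios were 0.19, 0.03 and 0.62 for gga-miR-10a and 0.22, 0.05 and 0.35 for gga-miR-10b, above 0 on all 3 arrays for both. Among all probes 18.1% had that pattern. Read as dwarf over normal, gga-miR-196 alone of the set was above 0 on all 3 arrays, a pattern of 11.8% of all probes, and its Cy5 over Cy3 ratios were 0.04, -0.02 and 0.21. In the log2 ratios as deposited, gga-miR-196 stood at -0.12, 0.28 and 0 and lacked that pattern. With a dye term in the fit, the dwarf over normal ratio was 0.19 for gga-miR-10a, 0.12 for gga-miR-10b and 0.07 for gga-miR-196, each of which then rests on array 2 as much as on arrays 1 and 3 together.

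**Figure D3:**
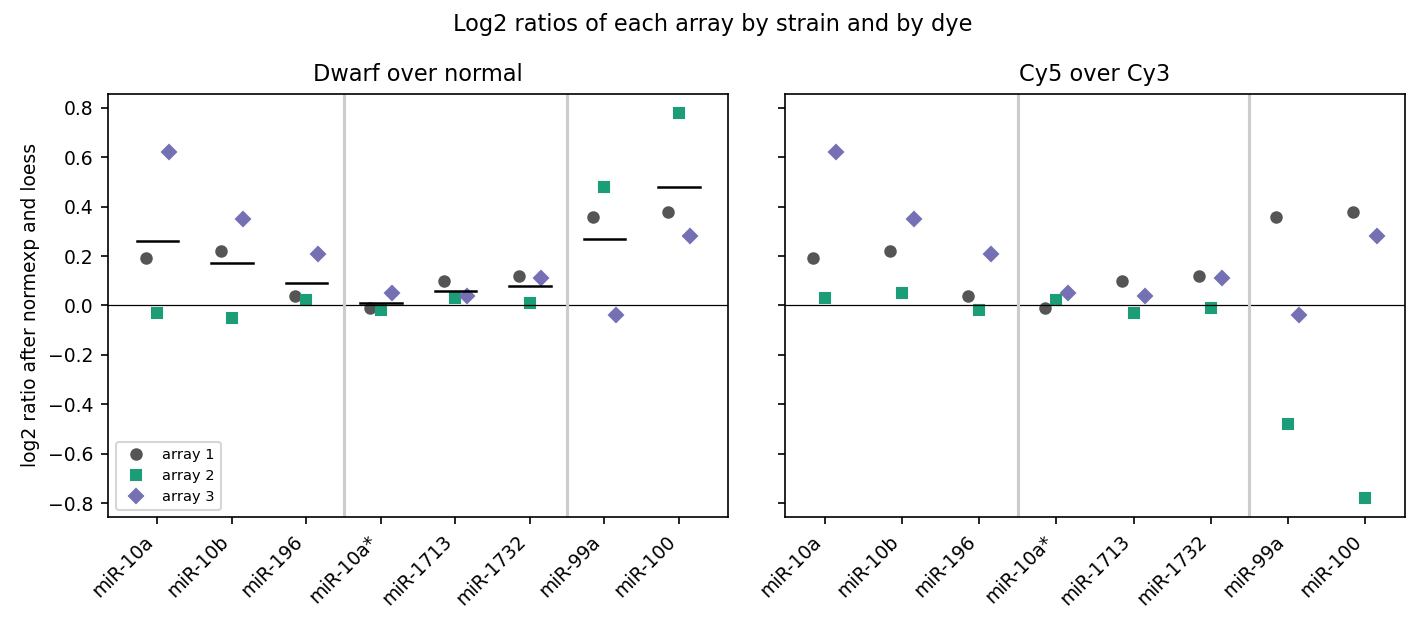
Log2 ratio of each array for the HOX-cluster miRNAs, the other probes of the HOX clusters and the relatives miR-99a and miR-100, read as dwarf over normal (left, with the mean as a bar) and as Cy5 over Cy3 (right). For gga-miR-10a and gga-miR-10b the array 2 point lies below 0 on the left and above 0 on the right, whereas miR-100 is above 0 on all 3 arrays on the left.

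None of the remaining probes of the HOX clusters reached the standard of 32 in either strain. gga-miR-10a*, the passenger strand cut from the other arm of the gga-miR-10a hairpin, passed 3 MAD in 0 of 36 spots and gave -5.02, -3.99 and 0.641 in dwarf and -22.9, -0.523 and -7.03 in normal pools. gga-miR-1713 lies within the span of HOXD3 and gave 12.5, 12.4 and 14.6 in dwarf and 5.28, 4.18 and 16.9 in normal pools. gga-miR-1732 lies within the span of HOXA9 and gave 10.2, -2.7 and 3.64 in dwarf and -13.8, -0.612 and -5.56 in normal pools. The mean ratios of these 3 probes ran from 0.01 to 0.08. The roles of miR-1713 and miR-1732 are not given in the sources used here. In the deposited ratios gga-miR-10a* had 1.13, -0.55 and 1.22, the same order of signs by array as gga-miR-10a and gga-miR-10b. No spot of that probe was above 3 MAD.

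Of the sequence relatives, miR-99a and miR-100 were read far above the standard in every pool. The let-7 probes ran from 11.9 to 9126 over single pools. miR-100, a repressor of mTOR in human cells, gave 675, 853 and 668 in dwarf and 447, 468 and 499.5 in normal pools, and the groups did not overlap. Its log2 ratios were 0.38, 0.78 and 0.28, with a mean of 0.48 (SE 0.19), and the limma adjusted p was 0.705. miR-99a, which carries the same seed, gave 863, 788 and 816 in dwarf and 604, 534 and 778 in normal pools, with a mean ratio of 0.27 (SE 0.19) and a limma adjusted p of 0.849. Its groups did not overlap either. Among all 542 probes, 5.54% had all 3 dwarf pools above all 3 normal pools. Array by array the ratios ran in another order than those of gga-miR-10a: for miR-100 array 2 was the highest and array 3 the lowest, and for gga-miR-10a array 3 was the highest and array 2 the lowest. All 8 let-7 probes, of the family known for promoting differentiation, were detected, with a median ratio of 0.12, against a median of 0.047 over the 85 tested. let-7k, with the highest ratio of them, passed only through its dwarf mean of 43.1, against 16.3 in normal pools. The mean let-7 ratios ran from -0.08 to 0.25 and the limma adjusted p-values from 0.929 to 0.979. Single arrays spread more widely, from -0.75 for let-7f on array 1 to 1.24 for let-7i on array 3. No part of the gga-miR-196 signal could be assigned to or separated from let-7 RNA in these data.

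By Euclidean distance over the 3 array ratios, the tested miRNAs most like gga-miR-10a were let-7k (0.21), miR-762 (0.31) and miR-21 (0.34). Their ratios were 0.01, 0.02 and 0.71 for let-7k, 0.21, -0.28 and 0.43 for miR-762, and -0.12, -0.09 and 0.74 for miR-21. All 3 had their highest ratio on array 3, as gga-miR-10a did, but they were picked for nearness to its ratios. That shared peak is therefore no separate result. let-7k and miR-762 exceeded 32 in 1 pool each, the dwarf pool of array 3 (85.9 and 47.5). The distance describes 3 points from the same 3 arrays and carries no test.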

How the data were processed

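The labels give 3 two-colour arrays (LC Sciences, designed on miRBase), each with 1 dwarf and 1 normal pool, array 2 with the dyes swapped. The authors deposited the scanned mean intensity of each of 3968 spots, without background correction, and a table of log2 ratios per array. Per the study's methods, background was subtracted, LOWESS applied and t-tests made; how spots were combined in the deposited log2 ratios is not given in the sources used here. Their direction was checked against the normalised dwarf over normal ratios computed here (r = 0.83, 0.88 and 0.89 across 85 miRNAs, which are not independent). A deposited ratio above 0 was accordingly read as higher in dwarf. The medians of the deposited ratios were 0.148, 0.018 and 0.148.

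From the intensities, a robust loess surface (span 0.3, degree 1) fitted to the 3252 miRNA spots by slide position gave the background of each array and dye. Ratios used normexp with an offset of 50, loess within the array (span 0.3, 4 iterations) and the mean of 6 spots on the log2 scale. Where the mean signal of a strain exceeded 32, the array ratios were tested against 0 with limma 3.58.1 in R 4.3.3, with Benjamini-Hochberg adjustment over 85. The array ratio pairs the pools. No depth exists for arrays: their number limits precision. The steps were tested on simulated arrays, where only miRNAs brighter than the members were changed, by ratios larger than the members' main mean ratios. Recovery of small ratios in dim probes was not tested.

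Named beside the members were other probes of the HOX clusters, the relatives miR-99a, miR-100 and let-7, and the 3 tested miRNAs nearest to each tested member. Members, lists and alternatives were chosen with earlier results of these data known, the alternatives for gga-miR-10a and the HOX-cluster probes outside the miR-10 and miR-196 families after the files were read. Gene neighbours come from the RefSeq table alone, since the array's build is not given in the sources used here.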

Additional observations from a re-analysis of the deposited data

How the results depend on the processing

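Filters, blocks and t-tests leave the mean ratios as they are by construction. Over the 12 alternatives that recompute it, the mean log2 ratio of gga-miR-10a was above 0 in 11, between -0.59 and 1.27, and over all alternatives in which it was tested its limma or t-test adjusted p ran from 0.327 to 0.99. With no normalisation within the array, a setting that leaves the dye difference in the ratios of all probes, it turned to -0.59. It left the test where a mean signal above 100, or above 32 in all 6 pools, was asked for. gga-miR-10b and gga-miR-196 were each above 0 in 11 of the same 12. All 12 reuse the same arrays, so these counts of signs are no separate support. The share of all probes with such counts was not computed. They were tested only with no filter on dim miRNAs and with the background from the empty spots, with limma adjusted p-values of 0.903 and 0.896 for both. With no normalisation they were -0.81 and -0.94, with plain subtraction of the background 2.16 and 1.55, and in the deposited ratios gga-miR-10b was 1.04. Plain subtraction set every spot below background to 1 unit before the log, among them Cy3 spots of every member. The ratios from plain subtraction, with 1.27 for gga-miR-10a, therefore rest in part on that floor. Leaving out 1 array gave 0.08 to 0.40 for gga-miR-10a, 0.08 to 0.28 for gga-miR-10b and 0.03 to 0.12 for gga-miR-196. With the background from the empty spots the mean normal signals were 81.4, 53.8 and 61.7 for gga-miR-10a, gga-miR-10b and gga-miR-196, and the dwarf signal of gga-miR-10b was 22.4. Without loess and scaling the normal signal of gga-miR-10a was 44.2. The empty spots lay below the fitted surface in Cy3, which held the normal pool on arrays 1 and 3. Subtracting their median therefore leaves more signal there by construction. The remaining shifts were not traced further.

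The number of miRNAs that limma called was 3 with the GC trend taken out, in a fit that gave all miRNAs one common variance, and 1 with a mean signal above 100, where fewer miRNAs were tested. Leaving out 1 array gave 0 to 3 calls, with 1 without array 1, 0 without array 2 and 3 without array 3. gga-miR-10a was tested and not called with the GC trend taken out and with each array left out, whereas gga-miR-10b and gga-miR-196 were outside the test in all settings that gave calls, as was gga-miR-10a at a mean signal above 100. The methods' t-test found 4 miRNAs with p under 0.05 paired by array and 1 unpaired, 0 of them at the stricter 0.01, and 0 after Benjamini-Hochberg adjustment. With the array as a replicate block the gga-miR-10a ratio was 0.26 with a limma adjusted p of 0.849, and 0.985 with no block. The low signal of gga-miR-10b and gga-miR-196, under 32 in every pool, is a limit on their values.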
